A study of Mus musculus with 407 samples.

Results

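The genes of the integrated stress response were described in RNA-seq libraries of mouse skeletal muscle, 98 of the diaphragm, 104 of the gastrocnemius, 103 of the soleus and 102 of the tibialis anterior. The 10 members were the transcription factors Atf4, Atf5 and Ddit3, the pseudokinase Trib3, the enzymes Asns, Psat1 and Chac1, the stress sensor Sesn2 and the secreted factors Fgf21 and Gdf15. They were taken by name, as genes known to be induced by this response, out of 24458 gene symbols in the count files, and all 10 were present. The muscles came from male and female C57BL/6J mice at 6 ages. The youngest were 6 and 12 months old, the middle ages were 18 and 21 months, and the oldest were 24 and 27 months. This gave 48 groups of 6 to 10 libraries, and the question asked of each muscle was how expression changed from 6 months on. The labels give no treatment and no engineered allele for any group, all mice shared the C57BL/6J background, and each library was made from total RNA of muscle tissue. The labels do not tie the muscles of a mouse together, and mice of an age shared a collection day, so age and day cannot be told apart.

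The integrated stress response starts when a kinase phosphorylates the translation factor eIF2. Most protein synthesis then slows, while the mRNA of ATF4 is translated better, and ATF4 switches on genes for amino acid synthesis and uptake, for redox balance and for feedback control. Because ATF4 protein is set largely at translation, the level of Atf4 mRNA and the levels of its target mRNAs report different steps. In muscle the response is known from mitochondrial disease, amino acid shortage and denervation, where muscle fibres release FGF21 and GDF15 as circulating signals.

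ATF4 binds with C/EBP partners to a composite element that can be written TGATGNAA, where N is any base. The letters were searched on both strands of the RefSeq promoter windows, which run from 250 bases before to 50 bases after each gene start on GRCm38.p6, the assembly also known as mm10. Of 32851 such windows, 1304 (3.97%) held TGATGNAA, and 294 (0.895%) held TGATGCAA, which is contained in the TGATGNAA matches. All 10 members had at least 1 window, and 4 members had a match. Chac1 and Fgf21 held TTGCATCA, the reverse complement of TGATGCAA, with the match beginning at position -193 and -139 from the gene start. Asns held TGATGAAA at -23, and Trib3 held TTACATCA at 15. A match describes the letters and does not show binding, and the windows of the other 6 members only lack these letters. The 250 bases before the start are given for the 3 members with an upstream match, 5′ to 3′ on the strand of the gene, with the match in capitals, because Fgf21, Asns and Chac1 moved in different ways with age. The windows are chr7:45615491-45615740 (minus strand) for Fgf21, chr6:7693210-7693459 (minus strand) for Asns and chr2:119350992-119351241 (plus strand) for Chac1.
Fgf21: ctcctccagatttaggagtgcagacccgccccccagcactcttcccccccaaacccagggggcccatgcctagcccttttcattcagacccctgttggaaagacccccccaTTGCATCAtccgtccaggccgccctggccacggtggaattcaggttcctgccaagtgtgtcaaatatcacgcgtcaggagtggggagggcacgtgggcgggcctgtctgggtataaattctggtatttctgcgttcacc
Asns: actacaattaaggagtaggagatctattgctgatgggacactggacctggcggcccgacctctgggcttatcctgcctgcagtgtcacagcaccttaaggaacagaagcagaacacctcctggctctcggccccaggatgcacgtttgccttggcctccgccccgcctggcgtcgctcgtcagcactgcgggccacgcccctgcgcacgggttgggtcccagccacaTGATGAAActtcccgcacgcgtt
Chac1: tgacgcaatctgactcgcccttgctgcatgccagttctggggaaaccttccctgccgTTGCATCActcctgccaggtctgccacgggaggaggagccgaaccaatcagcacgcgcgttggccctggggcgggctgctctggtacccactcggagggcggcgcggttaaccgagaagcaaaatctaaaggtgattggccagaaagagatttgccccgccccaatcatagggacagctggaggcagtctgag

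The libraries held 38583802 to 300089909 counted reads, with a median of 72766895. Levels are given as CPM, reads of a gene scaled to a common library size with TMM factors, and the precision of low genes is set by their reads. Atf4 had a median of 6225 reads per library, whereas Fgf21 had 2, and Fgf21 was at 0 in 133 libraries and Gdf15 in 28. Muscle markers matched the labels: the fast myosin Myh4 had a median of 40346 CPM in the gastrocnemius and 32578 CPM in the tibialis anterior, and the slow myosin Myh7 had 6205 CPM in the soleus. Liver transcripts were present at a median summed level of 8.09 CPM over 8 markers, and 53 libraries were above 10 times the median of their muscle. In 3 libraries the sum was over 1000 CPM, with 33934 CPM in replicate 3 of the male diaphragm at 21 months. 8 libraries stood apart from their own group, with a median correlation below 0.9 with the other libraries, and 6 of them were diaphragm. For Atf5 and Ddit3 there are genes on the opposite strand that overlap them by 272 to 571 bases and by 15 to 68 bases. Sesn2 overlaps Gm12981 on the same strand over 6089 bases, and Psat1 overlaps the pseudogene Gm3329 on the opposite strand over 556 bases, so reads there may be shared.

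At 6 months the members differed widely in level, and most differed between muscles. Per kilobase of exon, Atf4 (chr15:80255184-80257545) was the most abundant member in every muscle and sex, with group medians of 26.7 to 44.0 CPM per kb. Atf5 followed at 7.94 to 20.7, and Chac1 spanned 2.25 to 26.1 CPM per kb. Fgf21 was last, with medians of at most 0.00947 CPM per kb. In 12 comparisons between pairs of muscles, 30 of 120 member tests were called higher in the muscle named first and 31 lower, together 50.8%, against 17.8% and 13.8% of all gene tests, together 31.6%. A gene was called when the edgeR quasi-likelihood test gave an adjusted p below 0.05 and the fold was above 1.5.

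Chac1 (chr2:119351242-119354326), which degrades glutathione, split the muscles into a high and a low pair in both sexes. In females at 6 months it ranged from 13.2 to 52.2 CPM in the gastrocnemius (median 18.9, n = 8) and from 2.47 to 6.66 CPM in the soleus (median 3.68, n = 8), with no overlap. The log2 difference was 2.53 (SE 0.35, adjusted p = 7.42e-11) in females and 2.76 (SE 0.51, adjusted p = 1.24e-06) in males. The tibialis anterior stood at the level of the gastrocnemius (female log2 difference 0.03, SE 0.32), and the diaphragm at that of the soleus (0.04, SE 0.34); neither was called, and the fast limb muscles formed the high pair.

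Gdf15 (chr8:70629393-70632470), a stress hormone that acts on the brainstem, ran the other way. Female soleus libraries held 0.420 to 1.27 CPM (median 0.702), and female gastrocnemius libraries held 0.0275 to 0.109 CPM (median 0.0676), again with no overlap. The gastrocnemius was lower by a log2 difference of -3.53 (SE 0.57, adjusted p = 2.81e-08) in females and -2.79 (SE 0.66, adjusted p = 0.000182) in males. The diaphragm lay in between in females, below the soleus by -2.21 (adjusted p = 0.000133) and above the tibialis anterior by 1.92 (adjusted p = 0.00224).

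The biosynthetic enzymes were high in the diaphragm and low in the tibialis anterior. Asns (chr6:7675165-7693209), asparagine synthetase, exceeded the gastrocnemius level in the diaphragm by 1.36 in females (SE 0.17, adjusted p = 8.25e-13) and 1.20 in males (SE 0.22, adjusted p = 3.87e-07) on the log2 scale. Psat1 (chr19:15905123-15925059), an aminotransferase of serine synthesis, was 2.14 higher in the diaphragm than in the tibialis anterior in females (SE 0.21, adjusted p = 2.87e-19), and its diaphragm and soleus levels were not called different (0.09, SE 0.19). Atf5 (chr7:44812256-44816658), an activator of mitochondrial stress genes, was highest in the soleus, where it exceeded the gastrocnemius by 1.08 in females (SE 0.15, adjusted p = 1.66e-10). Atf4 varied little, with the diaphragm below the other muscles by -0.51 to -0.87 and no call among the limb muscles. Scaling bears on these values, since the TMM factors had medians of 1.37 in the diaphragm, 1.04 in the soleus, 0.889 in the gastrocnemius and 0.777 in the tibialis anterior. With DESeq2's size factors in their place the Atf4 differences were -0.44 to -0.65, the median of all genes shifted by 0.15 to 0.24 in the 3 male comparisons of the diaphragm, and 8 of 120 member calls changed. Among them the male diaphragm calls against the soleus were lost for Atf4, Atf5 and Ddit3, as was that of Sesn2 against the tibialis anterior. Calls were gained for Asns over the soleus (0.68) and Atf5 over the tibialis anterior (0.68) in the male diaphragm. Trib3 gained calls over the tibialis anterior in the female diaphragm (0.61) and the male soleus (0.81). In the same 3 male comparisons, the share of all calls that were higher in the diaphragm was 50.3% to 55.8% with TMM and 63.4% to 70.0% with the size factors. Without the libraries that stood apart, the male calls against the soleus were lost for Atf4 (-0.47), Atf5 (-0.34) and Ddit3 (-0.40), and Sesn2 lost its male calls against the gastrocnemius (-0.93 with all libraries, -0.58 without) and the tibialis anterior (-0.82 and -0.42). The male diaphragm gained calls of Atf5 over the gastrocnemius (0.34 and 0.67) and the tibialis anterior (0.44 and 0.82). Trib3 gained calls over the tibialis anterior in the female diaphragm (0.55 and 0.70) and the male soleus (0.72 and 0.80).

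With age, the response did not move as a block. Across the 8 combinations of muscle and sex, 74 member tests were possible at each age, since Fgf21 passed the filter on low counts only in the gastrocnemius and the tibialis anterior and Gdf15 did not pass it in the tibialis anterior. At 12 months no member was called by edgeR, with 3 of 74 at an unadjusted p below 0.05, against 0.126% of all genes called. DESeq2 and limma-voom also called 0 of 74, each with 3 at an unadjusted p below 0.05. At 18 months 2 of 74 member tests were called higher (2.7%), against 1.18% of all genes called in either direction. At 21 and at 24 months 7 were called higher (9.46% each), against 3.49% and 3.51%. At 27 months 7 were called higher and 2 lower, against 4.15%. Without Fgf21, 1 of 70 tests was called at 18 months (1.43%), 4 at 21 months (5.71%) and 3 at 24 months (4.29%). The share of member tests called at 27 months was 12.2%, and 8.57% (6 of 70) without Fgf21, whose calls could only point upwards. Gdf15 in the gastrocnemius also passed the filter through older groups, so its calls leaned upwards too, and they remain in these shares. Without Fgf21, 4 tests were called higher and 2 lower at 27 months, against 2.95% and 1.2% of all gene tests. The 4 were Gdf15 in the gastrocnemius of both sexes and Psat1 in the male soleus and the male tibialis anterior. At 21 and 24 months the shares include Gdf15 in the male gastrocnemius, so the excess over all genes rests partly on tilted tests. Of the 23 calls of higher expression, 11 were Fgf21, 5 Trib3, 4 Gdf15 and 3 Psat1, and both calls of lower expression were Chac1. Atf4, Atf5, Ddit3, Asns and Sesn2 had no call at any age. Without the fold limit the counts over all ages were 42 higher and 5 lower of 370 tests (11.4% and 1.35%), against 4.32% and 3.78% of all gene tests. The 370 tests include those of Fgf21 and of Gdf15 in the gastrocnemius, which the filter tilted upwards. The map of log2 fold changes shows that all calls of higher expression but Psat1 in the male soleus were in the gastrocnemius or the tibialis anterior. The 11 calls of Fgf21 could fall nowhere else, since it was tested only in these muscles.

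**Figure D1:**
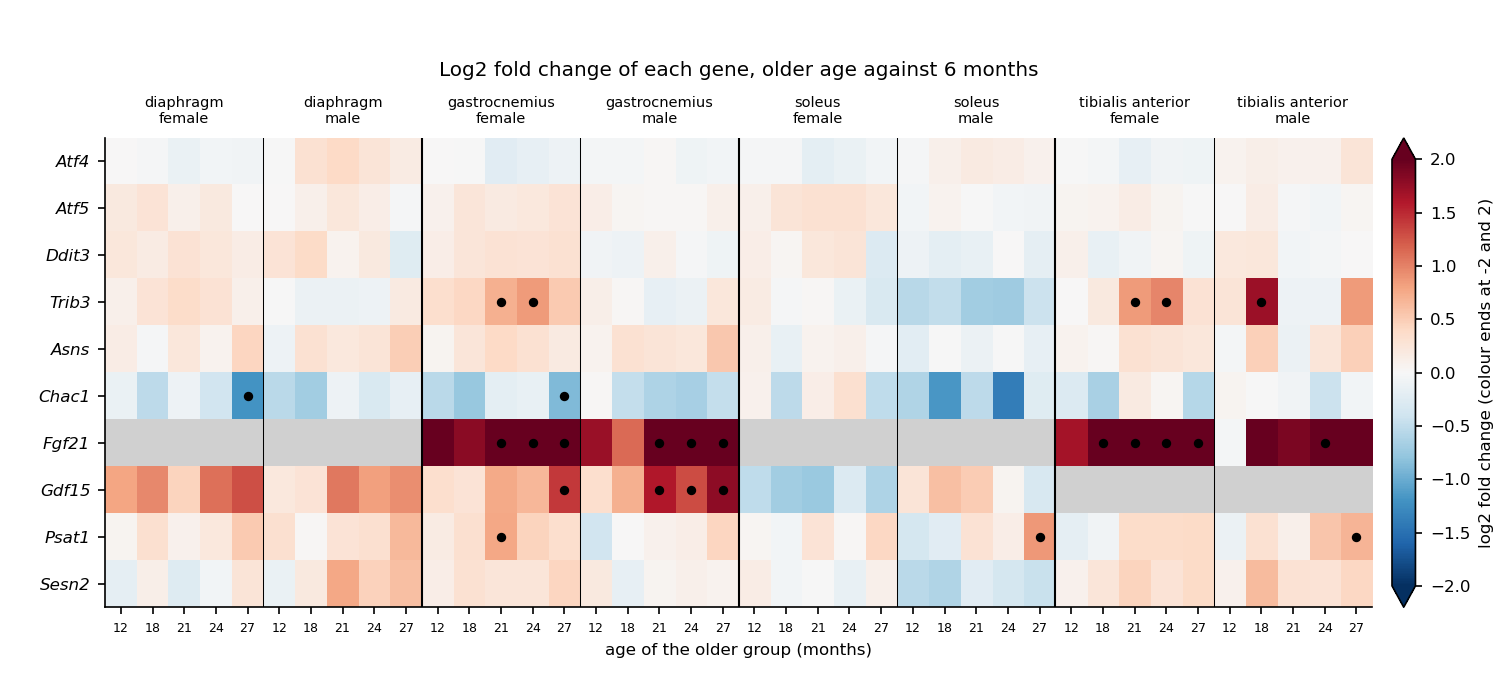
Log2 fold change of each gene (rows) at 12, 18, 21, 24 and 27 months against 6 months (columns) in each muscle and sex; red is higher at the older age, blue lower, grey was not tested, colour ends at -2 and 2, and black dots mark calls. The dots fall mostly on Fgf21, Trib3 and Gdf15 in the gastrocnemius and the tibialis anterior, and the Atf4 row stays pale throughout.

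A linear trend on log2 age, which uses every age at once and has no limit on fold, was called for 21 rising and 2 falling of 74 member tests (31.1%), against 9.83% rising and 10.2% falling of all gene tests, together 20%. Without Fgf21, but with Gdf15, it was called for 17 rising and 2 falling of 70 (27.1%). The female gastrocnemius held 8 of the rising trends and 1 falling. So 9 of its 10 members moved with age, where 33.2% of all genes tested there did. Fgf21 and Gdf15 are among the 10, and the filter tilted their tests upwards, so the 2 shares are not fully alike. The male gastrocnemius and the female tibialis anterior each had 4 rising (27.9% and 27.5% of all genes called), and the male tibialis anterior 3 (20%). The soleus had 1 rising and 1 falling in females and none in males (31.1% and 5.3%), and the diaphragm 1 rising in males and none in females (10.9% and 5.79%). The members had a median log2 change at 27 months of 0.32 in the female gastrocnemius against 0.02 over all genes there, 0.41 against 0.01 in the male tibialis anterior, and -0.19 against -0.01 in the male soleus. Of all genes, 4.97% were called at that age in the female and 5.36% in the male gastrocnemius, 6.96% and 4.07% in the tibialis anterior, 1.23% and 5.59% in the diaphragm, and 4.05% and 1.17% in the soleus.

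Fgf21 (chr7:45613890-45615490), the hormone by which stressed muscle can act on fat, liver and brain, gave the largest log2 changes among the tested members. In the female gastrocnemius at 6 months the libraries held 0, 0 and 2 reads (lowest, median and highest, n = 8), and 5 of 8 were at 0. At 21 months they held 6, 10.5 and 33 reads (n = 8), at 24 months 2, 13.5 and 19 (n = 10), and at 27 months 9, 17.5 and 47 (n = 10). In CPM the 27-month libraries lay between 0.0970 and 0.577, and no library of 21, 24 or 27 months reached down to the highest 6-month library, at 0.0275 CPM. The gene was read in 3 of 8 libraries at 6 months, in 7 of 8 at 12 months and in every library from 18 months on. Pooled reads were 4 at 6 months, 25 at 12 months and 16 at 18 months, and neither of these older ages was called. The ratios of pooled CPM to 6 months were 6.16 at 12 months (exact 95% interval 2.13 to 24.4) and 4.12 at 18 months (1.33 to 16.9). These intervals cover counting error only.

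The log2 fold changes fitted for the female gastrocnemius were 4.36 (SE 0.57, adjusted p = 2.06e-07) at 21 months, 4.26 (SE 0.56, adjusted p = 1.46e-07) at 24 months and 4.90 (SE 0.55, adjusted p = 1.41e-09) at 27 months. With so few reads at 6 months these values depend on the prior count of the fit. Fgf21 was also tested only because the older groups passed the filter, so these p-values do not test its direction. The same holds for the male gastrocnemius and the tibialis anterior. Pooled over libraries, 4 reads at 6 months became 191 at 27 months, a ratio of CPM of 39.6 with an exact 95% interval of 15.2 to 147 that covers counting error only. The male gastrocnemius followed with 4 and 146 pooled reads, a ratio of 29.5 (11.3 to 110). Its pooled ratio was 3.94 (1.27 to 16.2) at 12 months and 2.40 (0.692 to 10.5) at 18 months. Its fitted log2 changes were 2.88, 3.93 and 4.48 at 21, 24 and 27 months (adjusted p = 0.00216, 5.69e-06 and 1.17e-07), and the groups did not overlap at 24 and 27 months. At 24 months, in both sexes of the gastrocnemius, the lowest library held 2 reads and so did the highest library of 6 months, so the lack of overlap there rests on scaling alone.

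The female tibialis anterior had the highest median level of Fgf21 at 27 months, and it was called from 18 months on. Female libraries at 27 months held 0.0802, 0.509 and 1.11 CPM (n = 10), whereas at 6 months 6 of 8 were at 0 and the highest was 0.0365 CPM. The pooled reads were 3 and 329, a ratio of 93.7 (31.8 to 457). The fitted log2 changes were 4.58, 5.39, 4.98 and 6.05 at 18, 21, 24 and 27 months (adjusted p = 0.00113, 1.56e-05, 3.87e-05 and 2.56e-07), with no overlap at 21 and 27 months. The liver markers moved with this group too, from a median sum of 9.33 CPM at 6 months to 72.4 CPM at 27 months. All 8 liver markers were called higher here at 27 months (median log2 change 3.53), and none was called in any other combination. Without the 53 libraries high in liver markers the log2 change of Fgf21 at 27 months was 5.90 (adjusted p = 3.24e-05).

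Male tibialis anterior libraries held 0.0190, 0.127 and 0.277 CPM of Fgf21 at 27 months, against 0, 0.00901 and 0.105 CPM at 6 months, so the groups overlapped. The pooled ratio was 6.16 (3.17 to 13.4), and the fitted change was 2.68 at 24 months (SE 0.90, adjusted p = 0.0357) and 2.46 at 27 months (adjusted p = 0.0534, not called). The call at 24 months was lost without replicate 1, 2, 3 or 5 of 6 months or replicate 2 of 24 months, left out singly, with values of 2.29 to 2.63 (adjusted p up to 0.0834), and without the 53 libraries high in liver markers (2.66, adjusted p = 0.0611). The male change minus the female change in this muscle was -3.57 on the log2 scale (SE 1.48, adjusted p = 0.208). The difference between the sexes therefore did not pass its own test, although the female values were the larger.

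Because Fgf21 passed the filter through the older groups, in which it was high, its calls in these muscles had to point upwards. In the diaphragm and the soleus it was not tested. Pooled reads at 6 and 27 months were 13 and 64 in the female diaphragm, 3 and 33 in the male diaphragm, 21 and 152 in the female soleus, and 4 and 93 in the male soleus. Single libraries held much of the soleus totals, with 83 of the 152 female and 68 of the 93 male reads in replicate 9 and replicate 2. In the male diaphragm at 21 months, 63 of 86 reads were in the library with the highest liver signal, where Fgf21 stood at 0.165 CPM against a group median of 0.0258, and the part of the liver transcripts in that value was not tested.

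**Figure D2:**
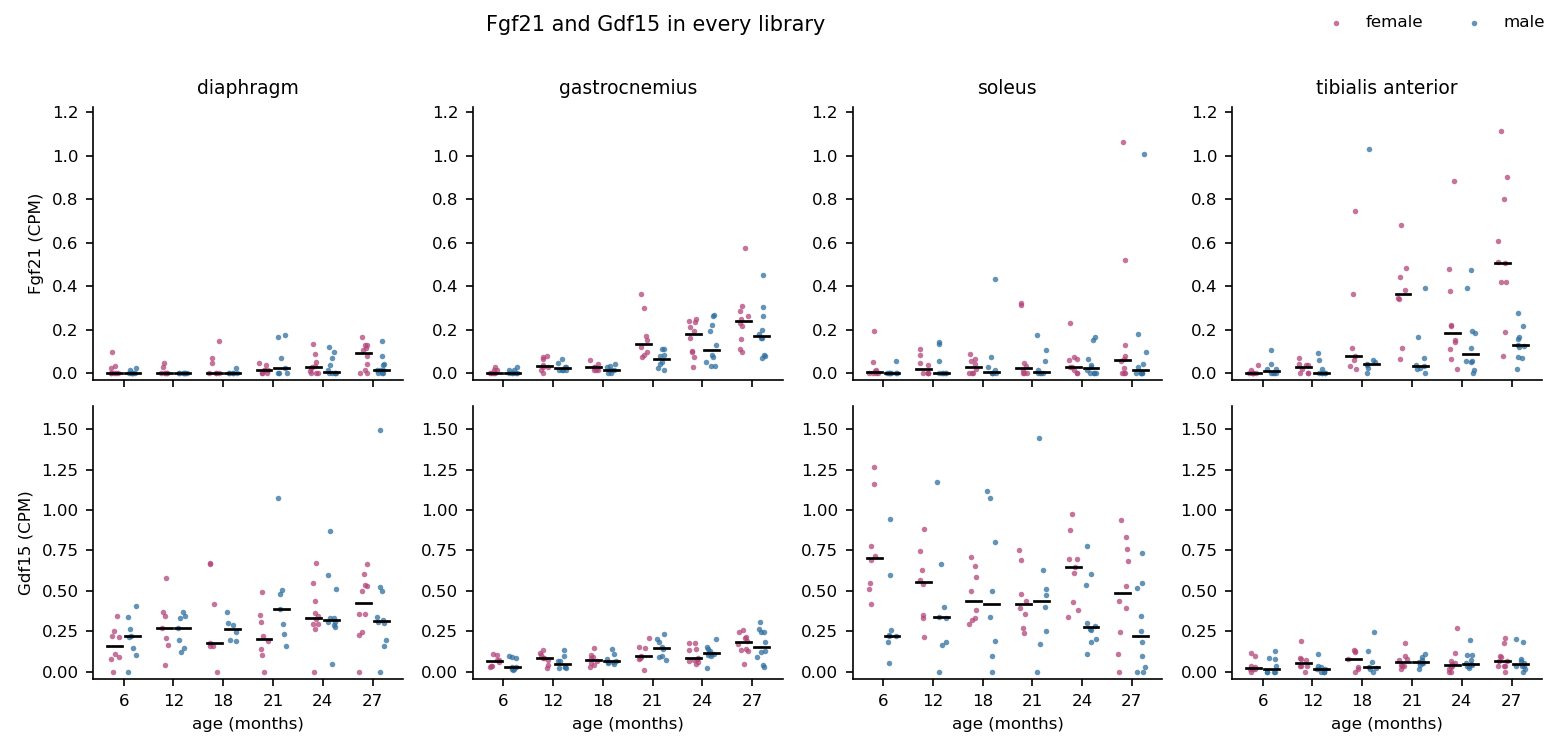
Fgf21 (upper row) and Gdf15 (lower row) in CPM on linear axes against age in months, in the 4 muscles; points are libraries, bars are group medians, and colours are the sexes. In the female gastrocnemius the pooled level of Fgf21 was 0.00596 CPM at 6 months, 0.0367 at 12 months, 0.0245 at 18 months and 0.163 at 21 months. The soleus has Fgf21 libraries at 1.06 and 1.01 CPM at 27 months. The Gdf15 medians of the soleus at 6 months (0.702 and 0.223 CPM) lie above those of the gastrocnemius at 27 months (0.182 and 0.156 CPM).

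Gdf15 rose in the gastrocnemius of both sexes. At 6 months no library of this muscle reached the level that the filter asks for. Like Fgf21, Gdf15 was therefore tested there through older groups in which it was higher, and its calls leaned upwards. In females it went from 0.0275, 0.0676 and 0.109 CPM at 6 months to 0.0498, 0.182 and 0.257 CPM at 27 months, a log2 change of 1.41 (SE 0.34, adjusted p = 0.00122), and the groups overlapped although 9 of 10 older libraries were above the 6-month median. In males the changes were 1.61, 1.31 and 1.78 at 21, 24 and 27 months (adjusted p = 0.00923, 0.0234 and 0.000874). The male call at 24 months was lost without replicate 2, 5 or 7 of 6 months, with values of 1.17 to 1.19 (adjusted p up to 0.0560). In the soleus the female log2 change at 27 months was -0.62, not called, and the soleus change minus the gastrocnemius change was -2.03 in females (SE 0.71, adjusted p = 0.0685). That difference passed with adjusted p = 0.0273 when the 8 libraries that stood apart were left out, a choice made after seeing the data.

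Trib3 (chr2:152337425-152344060), which binds AKT and feeds back on ATF4, was called in females at 21 and 24 months but not at 27 months. In the gastrocnemius it held 0.247, 0.440 and 0.508 CPM at 6 months, 0.543, 0.711 and 0.849 CPM at 21 months, and 0.585, 0.798 and 0.858 CPM at 24 months, without overlap. The log2 changes were 0.72 (SE 0.18, adjusted p = 0.00359) and 0.86 (SE 0.17, adjusted p = 0.000202). At 27 months the libraries spread from 0.406 to 0.959 CPM (median 0.611), and the change of 0.52 (SE 0.17, adjusted p = 0.0178) was under the fold limit. The difference between 24 and 27 months was not tested.

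The female tibialis anterior was called at the same ages for Trib3, with log2 changes of 0.85 at 21 months (adjusted p = 0.0403) and 0.98 at 24 months (SE 0.27, adjusted p = 0.00752), where all 10 libraries were above the 6-month median of 0.523 CPM. The 21-month call was lost without replicate 2, 6 or 7 of 6 months or replicate 3, 4 or 5 of 21 months, left out singly, and fell to 0.45 (adjusted p = 0.271) without replicate 3, at 2.63 CPM. The 24-month value was 0.61 (adjusted p = 0.148) with the run of sample numbers as a factor. In the male soleus the log2 changes were -0.42 to -0.71, and none was called.

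A single library carried the male tibialis anterior call for Trib3 at 18 months. Replicate 4 held 11.0 CPM, while the other 6 libraries held 0.475 to 1.61 CPM. With it the log2 change was 1.71 (SE 0.43, adjusted p = 0.0227), and without it 0.36 (adjusted p = 0.635). The same library was the highest of its group for 9 of the 10 members, all but Chac1. It held 145 CPM of Atf4 where the others held 93.6 to 128, 5.80 CPM of Sesn2 where they held 1.38 to 2.12, and 1.03 CPM of Fgf21 where they held 0 to 0.0620. Among all libraries no other was highest for as many members: 2 were highest for at least 7, and 8 for at least 5. This count was made after the values were seen.

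The enzymes had smaller log2 changes. Psat1 in the female gastrocnemius went from 0.886, 1.61 and 3.09 CPM at 6 months to 1.96, 2.70 and 4.13 CPM at 21 months (log2 change 0.77, SE 0.19, adjusted p = 0.00391), and all 8 older libraries were above the younger median. At 27 months it was called in the male tibialis anterior (0.68, SE 0.22, adjusted p = 0.0265) and the male soleus (0.87, SE 0.24, adjusted p = 0.0302), and in both all 10 older libraries were above the 6-month median. The tibialis anterior call was lost without replicate 4 or 7 of 6 months or replicate 5 of 27 months (0.61 to 0.63, adjusted p up to 0.0627). The soleus call was lost without replicate 1, 3 or 4 of 6 months or replicate 6 or 8 of 27 months (0.63 to 0.84, adjusted p up to 0.136), and replicate 8 alone held 11.7 CPM against a group median of 3.79.

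Asns and Sesn2 (chr4:132492804-132510456), a leucine sensor that restrains mTORC1, had trends without a call at any age. Asns rose by 0.15 log2 units per doubling of age in the female gastrocnemius (adjusted p = 0.0192) and by 0.20 in the male (adjusted p = 0.0391). Sesn2 rose by 0.17 in the female gastrocnemius (adjusted p = 0.00140), 0.19 in the female tibialis anterior (adjusted p = 0.0104) and 0.19 in the male (adjusted p = 0.0470). Its female gastrocnemius medians were 1.69 CPM at 6 months and 2.02 CPM at 27 months, and the ranges overlapped. Psat1 trended up in both sexes of both fast limb muscles, by 0.18 to 0.29 per doubling of age.

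**Figure D3:**
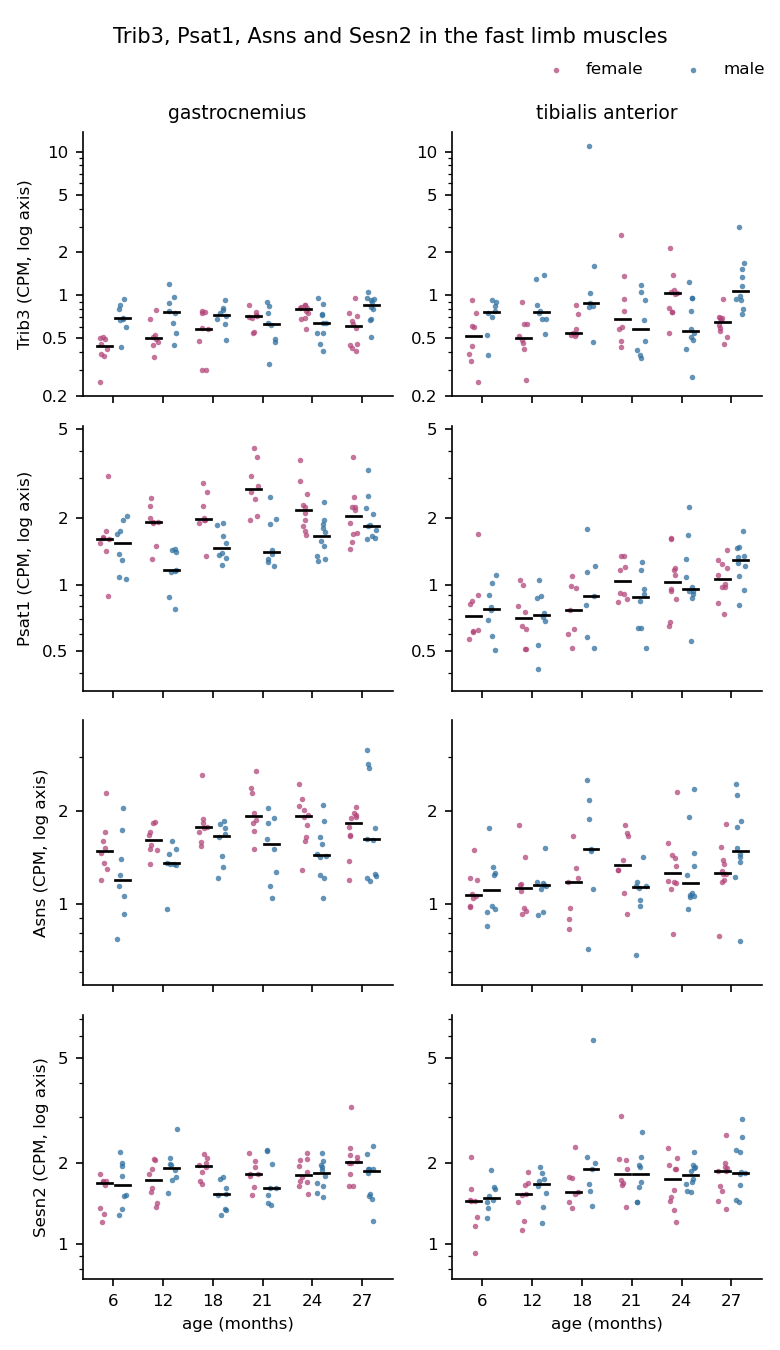
Trib3, Psat1, Asns and Sesn2 in CPM (log axes) against age in months in the gastrocnemius (left) and the tibialis anterior (right); points are libraries, bars are group medians, and colours are the sexes. Female Trib3 in the gastrocnemius is highest at 24 months (median 0.798 CPM), and 1 male tibialis anterior library at 18 months lies far above the rest for Trib3 and Sesn2.

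The transcription factors changed little. The log2 changes of Atf4 at any age and in any muscle lay between -0.22 and 0.41, and its medians in the female gastrocnemius were 89.4 CPM at 6 months and 85.2 CPM at 27 months. Its trends were -0.08 per doubling of age in the female gastrocnemius (adjusted p = 0.00645), -0.06 in the female soleus (adjusted p = 0.0232) and 0.14 in the male diaphragm (adjusted p = 0.0208), so the muscle with the most rising targets had a slightly falling Atf4 mRNA. Atf5 rose by 0.12 in the female gastrocnemius (adjusted p = 0.00116) and 0.14 in the female soleus (adjusted p = 4.70e-05). Ddit3 (chr10:127290793-127296291), which encodes CHOP, rose by 0.14 in the female gastrocnemius (adjusted p = 0.00318) and had no other trend called.

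Chac1 was the member called lower with age. In the female gastrocnemius it fell from 13.2, 18.9 and 52.2 CPM at 6 months to 4.82, 11.8 and 27.9 CPM at 27 months, a log2 change of -0.89 (SE 0.29, adjusted p = 0.0162), with overlap. Without replicate 7 of 6 months, at 52.2 CPM, the change was -0.60 (adjusted p = 0.103). In the female diaphragm it fell from a median of 4.02 to 1.72 CPM, a log2 change of -1.20 (SE 0.33, adjusted p = 0.0463). Replicate 0 of 27 months, a library that stood apart, held 0.180 CPM.

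The adjusted p of the diaphragm call for Chac1 lay close to the limit, while its fold moved little when a library was left out. The call was lost without replicate 1, 4, 5 or 7 of 6 months or replicate 1, 4, 5, 6, 7, 8 or 9 of 27 months, with values of -1.09 to -1.24 and adjusted p up to 0.116. Without the libraries that stood apart it was -1.18 (adjusted p = 0.0107). No male Chac1 change was called at any age, and the male change minus the female change passed its test in no muscle.

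Chac1 was the member called between the sexes. Averaged over the ages, 3 of 40 member tests were called higher in males and 0 lower by edgeR, with 24 at an unadjusted p below 0.05, against 2.31% and 3.32% of all genes, together 5.63%. Without the fold limit these were 9 higher and 9 lower, 22.5% each, against 18.2% and 20.3% of all gene tests. All 3 calls were Chac1, outside the soleus. Male gastrocnemius libraries held 5.43, 34.0 and 99.9 CPM (n = 52) and female ones 4.82, 15.6 and 52.2 CPM (n = 52), a log2 difference of 1.11 (SE 0.15, adjusted p = 2.77e-10). The tibialis anterior gave 1.05 (SE 0.15, adjusted p = 6.66e-09) and the diaphragm 0.94 (SE 0.18, adjusted p = 5.87e-05). The soleus gave 0.26 (SE 0.18, adjusted p = 0.306). The ranges overlapped in every muscle.

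**Figure D4:**
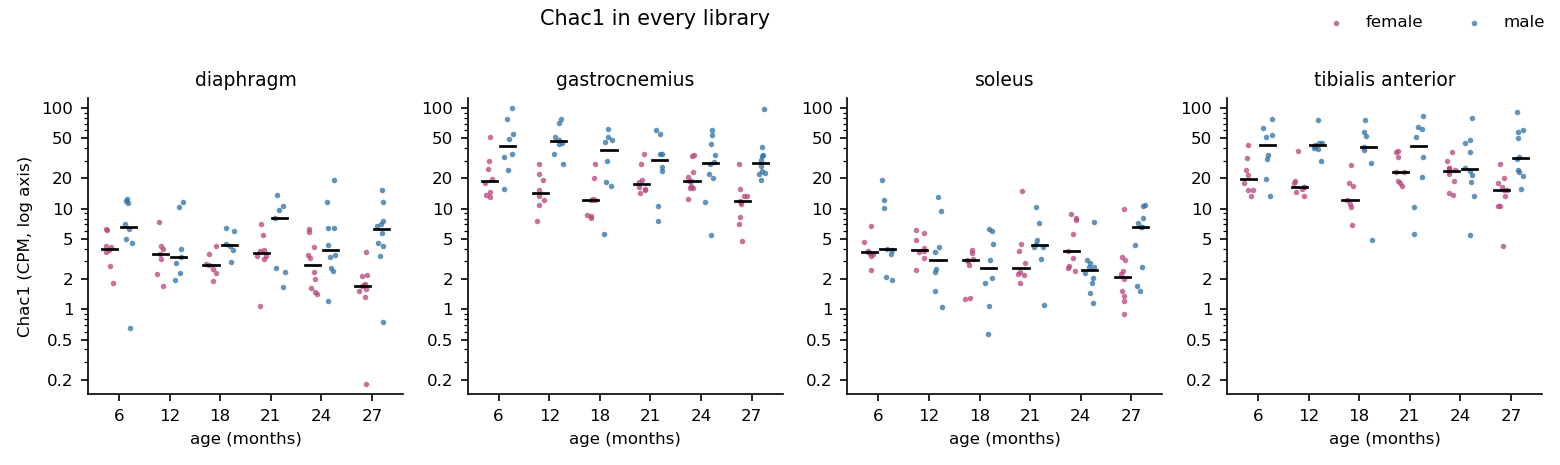
Chac1 in CPM (log axes) against age in months in the 4 muscles; points are libraries, bars are group medians, and colours are the sexes. The gastrocnemius and the tibialis anterior lie above the diaphragm and the soleus, and male medians lie above female ones at each age in the fast limb muscles.

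Smaller differences between the sexes were spread over the set. Atf5 was lower in males by -0.44 in the soleus (SE 0.04, adjusted p = 1.88e-18) and -0.43 in the tibialis anterior (SE 0.04, adjusted p = 3.77e-17), both under the fold limit. Atf4 was higher in males by 0.25 in the gastrocnemius (adjusted p = 2.88e-13) and the soleus difference was 0.00 (SE 0.02, adjusted p = 0.946). Psat1 was lower in male gastrocnemius by -0.45 (SE 0.07, adjusted p = 4.35e-08). No member passed the test of a sex by age interaction at 27 months by edgeR (0 of 40, 6 at an unadjusted p below 0.05, against 0.404% of all genes), and none passed the muscle by age interaction against the gastrocnemius (0 of 60, 8 at an unadjusted p below 0.05, against 1.17%). DESeq2 called 0 of 40 and 1 of 60 for the same tests, the 1 being Gdf15 in the female soleus.

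Within groups, most pairs of members had low correlations, and counting error limits r in the pairs of Fgf21 and Gdf15. Over all libraries the median correlation of 45 pairs of members was 0.08 after the group means were removed, and 3 pairs were above 0.5. Without the 8 libraries that stood apart the median stayed at 0.08 and 0 pairs were above 0.5. The libraries are shared by both genes of a pair, along with depth and base composition, and the values are descriptive. Asns and Psat1, the 2 genes of amino acid synthesis, gave the steadiest pair, with r = 0.62 in the diaphragm (n = 98), 0.63 in the gastrocnemius (n = 104), 0.52 in the tibialis anterior (n = 102) and 0.14 in the soleus (n = 103). Within the muscles the log2 TMM factor correlated with Psat1 at r = 0.38 to 0.57 and with Asns at 0.15 to 0.30. The part of scaling in this pair was not tested. Trib3 went with Atf5 in the tibialis anterior (r = 0.55). In the soleus Trib3 and Sesn2 gave r = 0.65, and 0.16 without the 2 soleus libraries that stood apart, in 1 of which both genes were at 0.

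In the diaphragm 13 of 45 pairs were above 0.5, and 2 remained above it without the 6 libraries that stood apart. Those libraries had a common direction. In 5 of the 6, the deviations of all genes from the group mean ran against the GC content of the transcripts (r from -0.57 to -0.76), and in 5 of the 6 Atf5, Ddit3, Trib3, Chac1, Gdf15 and Sesn2 lay below all other libraries of their group. Asns lay above all others in 3 of the 6. Across all 98 diaphragm libraries the deviation of Atf5 followed this GC measure with r = 0.87, and with r = 0.78 over the 92 other libraries. The corresponding values were 0.77 and 0.53 for Sesn2, 0.74 and 0.45 for Ddit3, and 0.74 and 0.49 for Gdf15. The part of base composition in the diaphragm results was not tested.

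Leaving out the libraries that stood apart added age calls in the diaphragm and lost none. In males at 27 months Asns then rose by 0.60 (adjusted p = 0.0415) and Psat1 by 0.75 (adjusted p = 0.0456), and the trends of Asns and Sesn2 in males and of Chac1 in females were called. Over the ages, the same choice called Fgf21 lower in males than in females in the diaphragm, by -1.25 (adjusted p = 0.0321).

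**Figure D5:**
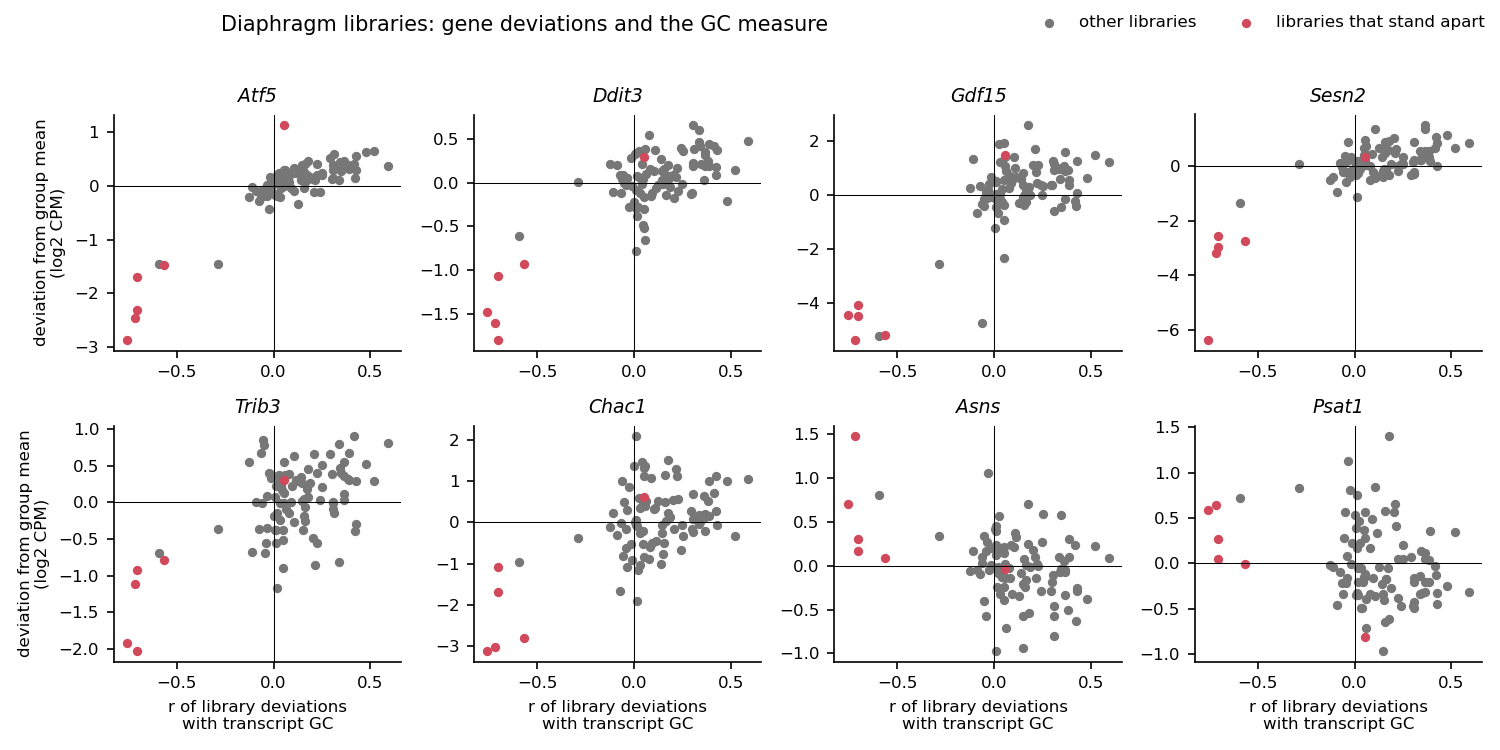
Deviation of 8 genes from their group mean (vertical, log2 CPM) against the correlation of all genes' deviations with transcript GC content (horizontal) in the 98 diaphragm libraries; red points are the 6 libraries that stood apart. 5 of the red points lie at the lower left for Atf5, Ddit3, Gdf15, Sesn2, Trib3 and Chac1, and at or above 0 for Asns.

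The genes whose deviations were most like those of each member over all libraries were recorded by Pearson's r, as a description. For Atf4 the closest was Iars, the isoleucyl-tRNA synthetase and itself a known ATF4 target, with r = 0.64. Next to it came Smcr8 (r = 0.58) and Ndel1 (r = 0.57). Atf5 was closest to Chchd10 (r = 0.89), Cenpb and Akt1s1 (both r = 0.88), Ddit3 to Ndufb7, Rara and Uqcr10 (each r = 0.58), and Gdf15 to Rps4l (r = 0.52). Sesn2 was closest to Fam98c (r = 0.78), Chac1 to Cish (r = 0.59) and Trib3 to Paox (r = 0.58). Psat1 was closest to Dram1 (r = 0.54), which stood second for Asns (r = 0.57). The 50 genes most like Atf5, Sesn2 and Gdf15 had median transcript GC contents of 59.6%, 59.1% and 59.0%, against 49.7% over all genes tested, and those most like Asns and Psat1 had 45.6% and 45.9%. Fgf21 had no close companion, the nearest being Krt18 (r = 0.40), Ces2c and Krt8 (both r = 0.35).

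The other genes of the pathway were read from lists at 27 months. The 4 eIF2 kinases gave 0 of 32 calls by edgeR, with 4 tests at an unadjusted p below 0.05. The 12 cytosolic tRNA synthetases, which charge tRNAs with amino acids, gave 0 of 96, with 30 at an unadjusted p below 0.05. DESeq2 and limma-voom also called none in either list. Among eIF2, its exchange factor, the phosphatase subunits and the translation repressor 4E-BP1, 3 of 72 tests were called higher and 0 lower, all for Eif4ebp1 in males, by 0.68 in the gastrocnemius (adjusted p = 0.00832), 0.71 in the soleus (adjusted p = 0.0119) and 0.96 in the tibialis anterior (adjusted p = 0.00118). By comparison 2.95% of all gene tests at this age were called higher and 1.2% lower.

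Amino acid transporters had the most calls among these lists, with 10 of 68 tests higher and 0 lower. Slc7a11, the cystine importer that feeds glutathione synthesis, was called in 5 of 8 combinations, by 3.24 in the male diaphragm (SE 0.67, adjusted p = 0.00303), 3.02 in the male soleus (SE 0.83, adjusted p = 0.0321) and 1.92 in the male tibialis anterior (adjusted p = 0.0121). Slc7a5, the importer of leucine and other large neutral amino acids, was called in 4, by 1.08 in the male (adjusted p = 0.00114) and 0.90 in the female tibialis anterior (adjusted p = 2.32e-05). The remaining transporter call was Slc6a9, the glycine transporter, in the male soleus (0.66, adjusted p = 0.00861).

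Genes of serine, one-carbon and proline synthesis gave 4 calls higher and 1 lower of 64. Mthfd2, a mitochondrial folate enzyme, rose in the tibialis anterior by 1.07 in females (SE 0.21, adjusted p = 0.000167) and 1.11 in males (adjusted p = 0.0165), and in the male diaphragm by 1.38 (adjusted p = 0.00900), where Mthfd1l rose by 1.03 (adjusted p = 0.0325). Aldh1l2, another mitochondrial folate enzyme, fell by 0.67 on the log2 scale in the female gastrocnemius (adjusted p = 1.33e-07), so members of that list moved both ways. Other ATF4 targets gave 3 of 40 higher (Stc2 in the male gastrocnemius and tibialis anterior, Ddit4 in the male diaphragm), and ER chaperones 4 of 80 (Sdf2l1, Creld2 and Pdia4 in the male diaphragm, Sdf2l1 in the female tibialis anterior). The male diaphragm, which also held calls of Slc7a11, Slc7a5, Mthfd2, Mthfd1l and Ddit4, was the combination in which all 4 T cell markers were called higher at 27 months (median log2 change 3.07). All 4 were tested only in the diaphragm, with 0 calls in females, while 2 were tested in each limb combination. In the male diaphragm the summed level of the 4 markers went from 0.522, 1.45 and 1.84 CPM at 6 months (lowest, median and highest) to 0.745, 9.92 and 21.0 CPM, no marker was at 0 throughout either group, and the part of these cells in the pathway calls was not tested. The other stress transcription factors gave Atf3 higher in the male gastrocnemius (1.59, SE 0.39, adjusted p = 0.00197) and Nupr1 lower in the female soleus (-0.86, adjusted p = 9.78e-05) among 48 tests. Mitochondrial stress genes gave 0 of 56 by edgeR, DESeq2 and limma-voom, with 11 at an unadjusted p below 0.05 by edgeR.

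Genes that mark denervated fibres were called higher with age in 7 of 8 combinations of muscle and sex, all but the female diaphragm. The paper used a Bonferroni adjustment. In mouse muscle it reported no significant increase of the markers Chrnd, Musk and Ncam1, except Chrnd in the gastrocnemius. At 27 months 38 of 64 tests of 8 marker genes were called higher here and 0 lower, against 2.95% and 1.2% of all gene tests. The gastrocnemius and the tibialis anterior, where Fgf21 was tested, gave 7 of 8 in females and 6 and 7 of 8 in males. The soleus, where Fgf21 was not tested, gave 5 of 8 in females and 4 of 8 in males, and the diaphragm 0 and 2 of 8. Their summed level in the female gastrocnemius went from 58.6, 70.3 and 79.3 CPM (lowest, median and highest) at 6 months to 89.9, 148 and 183 CPM, and in the female tibialis anterior from 43.2, 45.7 and 52.1 to 64.0, 107 and 236 CPM, without overlap. In the soleus the medians went from 159 to 186 CPM in females and from 141 to 215 CPM in males. In the diaphragm they were 77.0 and 75.9 CPM in females and 70.9 and 77.6 CPM in males, where the highest library at 27 months held 264 CPM. Within groups the sum correlated with Fgf21 at r = 0.24 in the gastrocnemius (n = 104), 0.38 in the tibialis anterior (n = 102), 0.42 in the soleus (n = 103) and 0.30 in the diaphragm (n = 98). Other members gave values as high or higher. Atf4 gave r = 0.58 in the gastrocnemius and 0.64 in the diaphragm, where Chac1 and Gdf15 both gave 0.37, and over all members and muscles r ran from -0.33 (Ddit3 in the gastrocnemius) to 0.64. These are descriptions, and the points share libraries and depth. Of other lists, skeletal muscle markers gave 4 higher and 1 lower of 64, fibroblast markers gave 13 of 32 tests lower, T cell markers 5 of 20 and macrophage markers 5 of 40 higher, adipocyte markers 2 of 32 and liver markers 8 of 64 higher (all 8 in the female tibialis anterior), and blood markers 0 of 29 (7 at an unadjusted p below 0.05 by edgeR, and 1 called by DESeq2). Their part in the members' changes was not tested, and in bulk muscle fewer cells of a type and less RNA per cell cannot be told apart.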

How the data were processed

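RNA-seq was measured in libraries of mouse diaphragm, gastrocnemius, soleus and tibialis anterior. Total RNA was depleted of rRNA, and strand-specific libraries were sequenced as read pairs. The authors aligned reads to mm10 and counted them per gene with ArrayStudio and a RefSeq-based gene model, and they deposited raw counts per gene. The tool versions and the strand setting of the counting are not given in the sources used here. No 2 libraries held identical counts. Of 25091 rows, 329 symbols stood on several, and the row with the most counts was kept for each, which left out 633 rows with 0.0335% of counts and kept 24458 symbols.

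Counts were fitted with edgeR 4.0.16 (quasi-likelihood test, TMM scaling, filterByExpr) in R 4.3.3, within each muscle and sex for age, within each muscle for sex, and within each sex for muscle. P-values were adjusted over all genes tested (Benjamini-Hochberg). A gene was called at an adjusted p below 0.05 and a fold above 1.5, and a trend at an adjusted p below 0.05. CPM values were TMM-scaled, with a prior count of 0.5 on the log2 scale, and levels per kilobase used GENCODE exon lengths. Intervals of pooled ratios are exact, 95%, and cover counting error only. The scripts were tested on simulated data. Libraries were grouped by the labels. The labels give a number of mice per age group but name no mouse, so p-values measure the spread between these samples.

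The members, the gene lists and the naming rule (all members, and of each list up to 3 genes called at 27 months in the most fits) were chosen with earlier results of these data known. Alternatives were other scalings and tools (limma 3.58.1, DESeq2 1.42.0), filters, a replicate block, sample numbers and left-out libraries. Leaving out libraries that stood apart or exceeded 1000 CPM of liver markers was chosen after seeing the data. Python 3.11.15, pandas 2.3.3, numpy 2.4.6, scipy 1.17.1 and matplotlib 3.10.9 were used for summaries and plots.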

Additional observations from a re-analysis of the deposited data

Results flagged for a closer look

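Within groups of 4 to 10 libraries, a library was picked out when its gap to the nearest other, as a share of the range of log2 CPM, passed Dixon's 95% critical value. Chance picks out about 1 in 20 groups, and here 73 libraries were picked out in 15.2% of 480 combinations of member and group. All values are CPM.

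In the diaphragm the values were mostly low and came from the same few libraries. In female replicate 2 at 6 months they were 4.39 for Atf5, 0.691 for Ddit3, 0.163 for Trib3, 0.176 for Sesn2 and 0 for Gdf15. In male replicate 2 at 6 months they were 2.87 for Atf5, 1.12 for Ddit3, 0.183 for Trib3, 0.653 for Chac1, and 0 for Gdf15 and Sesn2. Female replicate 0 at 21 months held 7.59 of Atf5, 1.48 of Ddit3, 1.09 of Chac1, 0.103 of Sesn2 and 0 of Gdf15. Female replicate 0 at 27 months held 4.04 of Atf5, 0.891 of Ddit3, 0.180 of Chac1, 0.131 of Sesn2 and 0 of Gdf15, with a high Asns at 13.5. Male replicate 6 at 27 months held 8.37 of Atf5, 0.750 of Chac1, 0.173 of Sesn2 and 0 of Gdf15. These 5 libraries stood apart from their groups, with deviations that ran against transcript GC content.

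Other diaphragm values were Atf5 at 59.0 in male replicate 3 at 21 months, the library with the highest liver signal, and at 9.92 in female replicate 3 and 9.59 in male replicate 6 at 24 months. Those 24-month libraries also held Gdf15 at 0 and 0.0499. Ddit3 was 2.23 in male replicate 5 at 24 months, Gdf15 was 0 in female replicate 4 at 18 months, and Fgf21 was 0.0232 in male replicate 1 at 18 months, where the other libraries were at 0.

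In the gastrocnemius, males held Atf4 at 129 (replicate 6, 6 months), Atf5 at 30.4 (replicate 7, 12 months), Ddit3 at 1.61 (replicate 9, 24 months), Asns at 0.961 (replicate 0, 12 months), Chac1 at 98.7 (replicate 8, 27 months) and Gdf15 at 0.0256 (replicate 3, 24 months). Females held Trib3 at 0.247 (replicate 0, 6 months), Asns at 2.62 (replicate 6, 18 months), Sesn2 at 3.25 (replicate 0, 27 months), and Gdf15 at 0.0131 (replicate 6, 21 months) and 0.0498 (replicate 5, 27 months).

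In the soleus, male replicate 2 at 27 months held 0 of Trib3 and Sesn2, and male replicate 7 at 6 months held 0.457 of Trib3 and 3.02 of Sesn2. Other male values were Atf4 at 118 (replicate 5, 18 months), Atf5 at 26.2 (replicate 6, 12 months), Fgf21 at 0.0543 (replicate 2, 6 months), and Gdf15 at 0 in replicate 7 at 12 months, replicate 5 at 18 months and replicate 4 at 21 months. Female values were Ddit3 at 2.99 (replicate 1, 21 months), Trib3 at 0.533 (replicate 2, 18 months), Chac1 at 15.2 (replicate 3, 21 months), Sesn2 at 0.534 (replicate 7, 18 months) and Gdf15 at 0 (replicate 4, 27 months).

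In the tibialis anterior, male replicate 4 at 18 months held 11.0 of Trib3 and 5.80 of Sesn2. Other male values were Atf5 at 25.4 (replicate 0, 12 months) and Chac1 at 75.8 (replicate 5, 12 months) and 4.92 (replicate 0, 18 months). Female values were Ddit3 at 5.95 (replicate 7, 12 months) and 4.82 (replicate 0, 6 months), Asns at 0.786 (replicate 6, 27 months), Chac1 at 37.2 (replicate 5, 12 months) and 4.27 (replicate 0, 27 months), Psat1 at 1.68 (replicate 7, 6 months), and Gdf15 at 0 in replicate 4 at 12 months and replicate 8 at 27 months.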

How the results depend on the processing

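The counts of calls were recomputed under each alternative. For age, 23 member tests were called higher, 8 with Bonferroni adjustment and 42 with no fold limit, and 18 to 27 when a replicate number was left out. The 2 called lower became 1 with no filter, 1 with the replicate block, 1 with the run of sample numbers, 0 with Bonferroni adjustment and 5 with no fold limit, and 0 to 4 with a number left out. The 21 rising trends became 4 with Bonferroni adjustment (15 to 21 with a number left out), and the 2 falling trends 1 with the run of sample numbers and 0 with Bonferroni adjustment (0 to 4). For muscle by age, the 0 tests called smaller than in the gastrocnemius became 1 with DESeq2, 2 with the run of sample numbers and 1 without the libraries that stood apart (0 to 1), and those called larger stayed at 0. For sex by age both counts stayed at 0 with each number left out. For muscle pairs, the 30 called higher became 16 with Bonferroni adjustment (29 to 33), and the 31 lower ranged from 27 to 31. For sex, the 3 called higher became 9 with no fold limit (3 to 4), and the 0 called lower became 2 with limma-voom, 2 with the run of sample numbers, 1 without the libraries that stood apart and 9 with no fold limit (0 to 1). The causes were not tested.

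Of the 25 age calls, 14 kept their direction and their side of the threshold in every setting, and of 475 recomputed values 59 lost the call and 0 changed sign. Of the 23 trends 12 did so, and of 437 values 49 lost the call and 0 changed sign. DESeq2's size factors within edgeR changed no call for age, trend, sex or the interactions, and 8 of 120 for muscle pairs (34 higher and 27 lower). The replicate numbers did not pair the samples: over 312 pairs of age groups the correlation of deviations ran from -0.55 to 0.57 (median 0.05, 109 above 0.1), and over 96 pairs of muscles at 6 months from -0.24 to 0.48 (median 0.09, 45 above 0.1). With the replicate block, 22 age tests were higher and 1 lower, and 18 trends rose and 3 fell. Depth limited Fgf21 and Gdf15 most, with medians of 2 and 11 reads per library.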
